A study of Rattus norvegicus with 29 samples.

Results

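Bile duct and liver progenitor markers were chosen by name: Epcam, Krt7, Krt19, Sox9, Spp1, Cd24, Afp and Prom1, each taken as the row of the array table whose single platform gene symbol was that gene. Of these 8 genes, 5 (Epcam, Krt19, Cd24, Prom1 and Afp) had a row, 1 row each, out of 14324 genes with such a row. Krt7, Sox9 and Spp1 were not analysed here. The samples were left liver lobes of male Crl:CD Sprague-Dawley rats, aged 6-7 weeks in the housing description, dosed once daily by oral gavage with PMCol (2,2,5,7,8-pentamethyl-6-chromanol, a chromanol with the ring system of vitamin E and no long side chain) in 1% methylcellulose, or with that vehicle alone. After 7 doses, livers were taken on day 8 from 6 rats given 2000 mg/kg and 6 given vehicle. After 28 doses, they were taken on day 29 from 6 rats given vehicle, 6 given 200 mg/kg and 5 given 2000 mg/kg. Each of the 29 rats had 1 whole-transcript microarray, and 200 mg/kg at day 8 was not analysed here.

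The bile ducts are lined by cholangiocytes, an epithelium that shares a common fetal precursor, the hepatoblast, with hepatocytes. In adult rodents, liver injury that hinders hepatocyte division can be followed by a ductular reaction, in which duct-like cells with progenitor features (oval cells in the rat) multiply and express several of these markers together. Epcam encodes an adhesion molecule of epithelial cells, Krt19 a keratin of simple epithelia, Cd24 a small surface glycoprotein, Prom1 the membrane protein CD133, and Afp alpha-fetoprotein, the main plasma protein of the fetal liver.

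Values are log2 and centred on each row's median over all 29 rats, so a value of 0 is that gene's own median. They carry no expression level, and genes cannot be ranked against each other by abundance. Judged from the rounding of the deposited decimals, Epcam was the only marker whose values before centring were 8 or more in all rats that could be judged. For Epcam these were 18 of the 29 rats. Whether cholangiocytes were well represented in each sample could therefore not be read from the markers. In bulk liver, fewer cells of a type and less RNA per cell cannot be told apart. Differences were tested with limma over all 27342 rows of the table, with Benjamini-Hochberg adjustment, and called at an adjusted p under 0.05. One array, vehicle replicate 1 of day 29, deviated more widely from its group than any other, with an SD over rows of 0.215, against 0.105 to 0.169 for the rest. Without it, Epcam on day 29 differed from vehicle by 0.85 at 2000 mg/kg (adjusted p = 7.31e-06) and by 0.22 at 200 mg/kg (adjusted p = 0.403), and no marker's call changed.

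Epcam was the marker that moved with the high dose. It was 1.77-fold higher after 7 doses of 2000 mg/kg and 1.84-fold higher after 28 doses, each against vehicle of the same day. None of Krt19, Cd24 and Prom1 passed the test in any comparison. Afp was called lower at 2000 mg/kg on day 8, by 0.24 on the log2 scale, a call that did not survive the removal of several single animals.

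**Figure D1:**
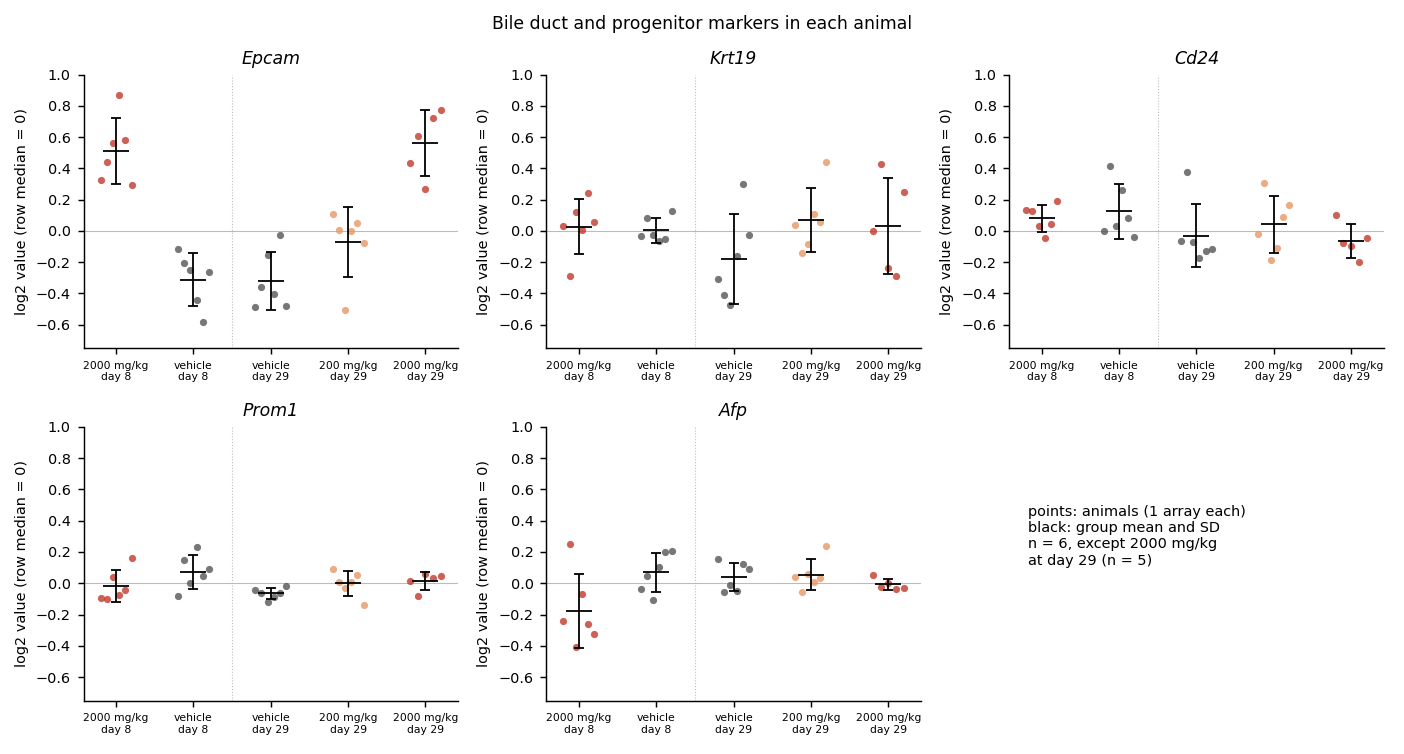
Centred log2 value of each marker (vertical axis, row median = 0, same scale in all panels) in each rat, by dose and day. Points are animals, and black marks give the group mean and SD (n = 6, except n = 5 for 2000 mg/kg at day 29). Epcam in both 2000 mg/kg groups lies at 0.27 or above, over every rat of the other groups, while the groups of the other markers overlap.

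On day 8, centred Epcam values were 0.33, 0.44, 0.56, 0.87, 0.58 and 0.29 in the 6 rats given 2000 mg/kg, against -0.12, -0.21, -0.25, -0.44, -0.58 and -0.26 in the 6 given vehicle. Every treated rat lay above every vehicle rat. The difference was 0.82 ± 0.11 on the log2 scale (SE, 95% interval 0.60 to 1.05), with an adjusted p of 2.49e-06 by limma. Only 5.84% of all rows had treated values entirely above vehicle values in this comparison.

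On day 29, Epcam was at 0.44, 0.61, 0.27, 0.72 and 0.78 in the 5 rats given 2000 mg/kg, against -0.49, -0.36, -0.15, -0.41, -0.03 and -0.48 in vehicle rats. The groups were again apart, as they were for 6.43% of all rows in that direction. The difference was 0.88 ± 0.12 (SE, 95% interval 0.64 to 1.12), with an adjusted p of 1.64e-06. Between the days, the 2000 mg/kg difference changed by 0.06 ± 0.16 (SE, 95% interval -0.27 to 0.38), which was not called (adjusted p = 0.908).

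At 200 mg/kg on day 29, Epcam was at 0.11, 0.01, -0.51, 0.00, 0.05 and -0.07. Of these 6 rats, 4 lay above all vehicle rats of that day and 1, replicate 3, lay below all of them. The mean difference from vehicle was 0.25 ± 0.11 (SE, 95% interval 0.02 to 0.47), and its adjusted p of 0.29 missed the threshold. Without replicate 3 the difference was 0.34 with an adjusted p of 0.0832.

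All 5 rats given 2000 mg/kg on day 29 exceeded all 6 given 200 mg/kg, a separation shown by 3.62% of rows. That difference was 0.63 ± 0.12 (SE), or 1.55-fold, with an adjusted p of 0.000471. The 3 day 29 groups averaged -0.32 ± 0.19 in vehicle rats, -0.07 ± 0.22 at 200 mg/kg and 0.56 ± 0.21 at 2000 mg/kg (SD). Across all 5 groups, the 2 high-dose means differed by less than their SD, and so did the 2 vehicle means. The vehicle difference, day 29 minus day 8, was -0.01 ± 0.11 (SE, adjusted p = 0.983).

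Krt19, the keratin most often used to mark bile ducts, did not separate the groups. On day 8 it ranged from -0.29 to 0.24 with a median of 0.04 at 2000 mg/kg, against -0.07 to 0.13 with a median of -0.03 in vehicle rats. The difference was 0.02 ± 0.12 (SE, 95% interval -0.23 to 0.27, adjusted p = 0.932). On day 29, the 2000 mg/kg rats were at 0.00, 0.43, -0.24, -0.29 and 0.25, so treated rats fell on both sides of the row median. Vehicle rats that day ranged from -0.47 to 0.30 with a median of -0.23, and the difference was 0.21 ± 0.13 (SE, adjusted p = 0.274). At 200 mg/kg, Krt19 ranged from -0.14 to 0.44 with a median of 0.05. It differed from the same vehicle rats by 0.25 ± 0.12 (SE, adjusted p = 0.365).

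Cd24 differed from vehicle by -0.04 ± 0.09 at 2000 mg/kg on day 8 (SE, adjusted p = 0.806) and by -0.03 ± 0.09 at 2000 mg/kg on day 29 (SE, adjusted p = 0.852). Its difference at 200 mg/kg was 0.07 ± 0.09 (SE, adjusted p = 0.829, 95% interval -0.11 to 0.25). Its rats ranged from -0.04 to 0.19 at 2000 mg/kg on day 8, against -0.04 to 0.41 in vehicle rats, and from -0.20 to 0.10 at 2000 mg/kg on day 29. The groups overlapped in all 3 comparisons. Vehicle replicate 2 of day 29, at 0.38, stood apart from the other vehicle rats of that day, which lay between -0.18 and -0.07.

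Prom1, which marks several kinds of epithelial progenitor, varied least of the markers. Its SD within groups was 0.0828 on the log2 scale, against 0.200 for Epcam, 0.222 for Krt19, 0.160 for Cd24 and 0.138 for Afp, and against a median of 0.114 over all rows. The Prom1 difference from vehicle was -0.09 ± 0.05 at 2000 mg/kg on day 8 (SE, adjusted p = 0.226), 0.08 ± 0.05 at 2000 mg/kg on day 29 (adjusted p = 0.301) and 0.06 ± 0.05 at 200 mg/kg (adjusted p = 0.657). On day 29, 4 of 5 rats given 2000 mg/kg lay above all vehicle rats, which spanned only -0.12 to -0.02.

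Afp was at -0.24, 0.25, -0.41, -0.07, -0.26 and -0.33 in the 6 rats given 2000 mg/kg on day 8, against -0.04, 0.04, -0.10, 0.11, 0.20 and 0.21 in vehicle rats. Of the treated rats, 4 lay below all vehicle rats, while replicate 2 lay above all of them. The difference was -0.24 ± 0.08 (SE, 95% interval -0.40 to -0.09), or 0.844-fold, with an adjusted p of 0.0248 by limma. The call was lost in 6 of the 12 fits that each left out 1 of these rats. The adjusted p reached 0.0783 without treated replicate 3 and fell to 0.00027 without treated replicate 2. With only these 2 groups in the model it was 0.0975.

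On day 29 the Afp groups overlapped. Rats given 2000 mg/kg lay between -0.04 and 0.05, against -0.06 to 0.15 in vehicle rats, and the difference was -0.05 ± 0.08 (SE, adjusted p = 0.747). At 200 mg/kg the Afp difference was 0.02 ± 0.08 (SE, adjusted p = 0.971).

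Counted together, 1 of the 5 markers was called higher (Epcam) and 1 lower (Afp) at 2000 mg/kg on day 8, where 18.6% of all rows were called in either direction, 9.32% higher and 9.32% lower. On day 29, 1 of 5 was called higher at 2000 mg/kg, where 21.6% of rows were called and 12.1% were higher. Among the 7991 rows stored, like Epcam, at 8 or more in all rats that could be judged, 19.8% were called higher on day 8 and 23.8% on day 29. A count of 1 in 5 is near these shares, so the counts show nothing particular to the markers as a group. At 200 mg/kg limma called 0 of 5, with 2 at an unadjusted p under 0.05, where 2.78% of rows were called and 13.7% had such an unadjusted p. Between 2000 and 200 mg/kg on day 29, 1 of 5 was higher, where 9.89% of rows were called and 6.05% were higher. For the change of the 2000 mg/kg difference between days limma called 0 of 5, with 1 at an unadjusted p under 0.05, where 0.775% of rows were called and 14.7% had such an unadjusted p. For vehicle day 29 against day 8 the counts were also 0 of 5 and 1, and the shares of rows were 2.73% and 18.3%. The median difference of the 5 markers from vehicle was -0.04 and 0.08 at 2000 mg/kg on day 8 and day 29, and 0.07 at 200 mg/kg, against -0.0049, 0.0025 and 0.0033 over all rows.

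The pattern of Epcam, higher at 2000 mg/kg on both days, was shared by 1739 rows, or 6.36% of the table. Of these, 899 rows, or 3.29% of the table, were also not called at 200 mg/kg and higher at 2000 than at 200 mg/kg, as Epcam was. For the other 4 markers, the 95% intervals of the 3 vehicle comparisons reached no higher than 0.50 on the log2 scale (1.41-fold, Krt19 at 200 mg/kg) and no lower than -0.40 (0.757-fold, Afp on day 8).

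**Figure D2:**
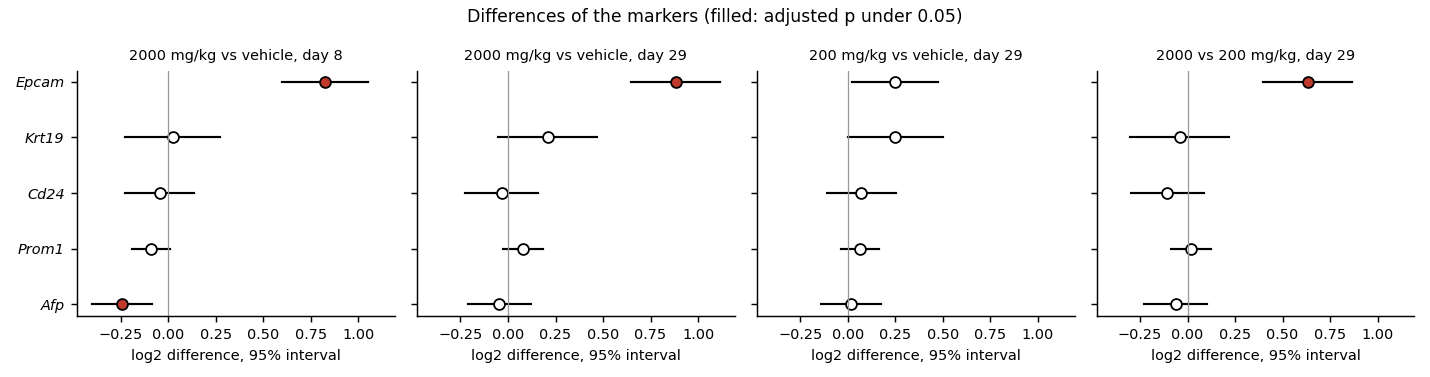
Log2 difference of each marker (horizontal axis) in 4 comparisons, first-named group minus second, with its 95% interval from the limma model. Filled circles have an adjusted p under 0.05: Epcam in the 3 comparisons of 2000 mg/kg, at 0.82, 0.88 and 0.63, and Afp on day 8, at -0.24.

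Correlations between the markers were weak. Over the 29 rats, which share dose groups, the Pearson correlation of 2 markers ran from -0.45 (Epcam and Afp) to 0.30 (Cd24 and Prom1), given as a description. As deviations from the group means, the range was -0.22 (Prom1 and Afp) to 0.27 (Epcam and Krt19), and Epcam and Afp were at -0.11. The genes whose values most resembled Epcam's were Clip1 (r = 0.940), which encodes a linker of vesicles to microtubules, Gpr108 (r = 0.938) and App (r = 0.937), the amyloid precursor protein. Taken as deviations from the group means, these correlations were 0.739, 0.601 and 0.680. App, chosen for this likeness and so described with no test, differed from vehicle by 0.78 at 2000 mg/kg on day 8, by 1.14 at 2000 mg/kg on day 29 and by 0.35 at 200 mg/kg on the log2 scale.

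The genes most like the other markers were less close. For Krt19 the nearest was Vim (r = 0.606), vimentin, an intermediate filament protein of mesenchymal cells. For Cd24 it was Uqcrc1 (r = 0.631), a subunit of respiratory complex III, with the macrophage receptor gene Vsig4 next (r = 0.630). For Prom1 it was Tmem26 (r = 0.707), and for Afp it was Tmem86b (r = 0.763).

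Markers of other liver cells also moved in these comparisons, and their part in the differences of the markers and lists was not tested. On day 8, all 11 measured Kupffer cell and macrophage markers were lower at 2000 mg/kg, where 9.32% of all rows were lower. The list median was -0.98. The mean of the list lay between -0.66 and 0.11 in rats given 2000 mg/kg, against 0.38 to 1.32 in vehicle rats. The group means were -0.10 and 0.86. On day 29 they were -0.20 in vehicle rats, -0.19 at 200 mg/kg and -0.22 at 2000 mg/kg, so the day 8 vehicle group had the highest mean. Single day 29 rats reached 0.87 in vehicle and 0.50 at 2000 mg/kg, inside the range of the day 8 vehicle rats. At 2000 mg/kg on day 8, 5 of 8 hepatocyte markers were lower, with a median of -0.15. Of 9 stellate cell and fibroblast markers 3 were lower and 1 higher there, with a median of -0.17. Of 4 measured erythroid markers 2 were lower on day 8, with a list median of -0.61, and that count ran from 0 to 3 when 1 rat was left out. It was 0 without vehicle replicate 6 or treated replicate 1 or 3, and 1 without vehicle replicate 2 or 5 or treated replicate 2 or 6. Their median also differed between the vehicle groups, day 29 against day 8, by -0.81, with 1 of 4 lower, where 1.77% of all rows were lower. That count was 3 without day 29 vehicle replicate 3.

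At 2000 mg/kg on day 29, limma called 0 of 11 macrophage markers, with 0 at an unadjusted p under 0.05, against 32.1% of all rows. For the change of the macrophage markers' 2000 mg/kg difference between days limma also called 0 of 11. All 11 had an unadjusted p under 0.05 there, against 14.7% of all rows. That list median was 0.97, and up to 3 were called with 1 rat left out. On day 29, 8 of 9 stellate cell and fibroblast markers were lower at 2000 mg/kg, with a median of -0.66, where 9.55% of all rows were lower. Their mean lay between -0.51 and -0.29 at 2000 mg/kg, against 0.03 to 0.59 in vehicle rats. Of the 8 hepatocyte markers 2 were lower there, with a median of -0.07. Between the vehicle groups, day 29 against day 8, all 11 macrophage markers were lower, where 1.77% of all rows were called lower. That count fell to between 4 and 6 in 8 of the 12 fits that left out 1 rat, those without day 8 vehicle replicate 2, 4 or 6 or day 29 vehicle replicate 1, 3, 4, 5 or 6. It was 5 without the widely deviating vehicle replicate 1, and 2 with only the vehicle groups in the model. Of 4 measured gut epithelium markers 1 was higher at 2000 mg/kg on day 29, where 12.1% of all rows were higher. It was Fabp2, a fatty acid binding protein of enterocytes, by 1.18 ± 0.22 (SE, adjusted p = 0.000167). Of 7 exocrine pancreas markers limma called 0 in that comparison, with 1 at an unadjusted p under 0.05, against 32.1% of all rows.

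Other genes of bile duct epithelium were called in small numbers, at shares near those of all rows on day 8. Of 24 measured genes for duct structure and transport, 3 were higher and 2 lower at 2000 mg/kg on day 8, or 12.5% and 8.33%, against 9.32% of all rows in each direction. On day 29, 4 were higher and 0 lower at 2000 mg/kg, or 16.7% higher, against 12.1% of all rows higher and 9.55% lower. The 4 fell to 2 without vehicle replicate 2, without treated replicate 1 and with quantile normalization. The count rose to 5 without vehicle replicate 1, and to as many as 6 under other settings. At 200 mg/kg 1 was higher, where 1.37% of all rows were, and 2 were without 200 mg/kg replicate 2 or 6. The median difference of the list was -0.03, 0.03 and 0.02 in these comparisons, beside the medians over all rows given above.

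Krt8 and Krt18 encode the keratin pair of simple epithelia, which hepatocytes also make. Krt8 was higher at 2000 mg/kg on day 8 by 0.59 ± 0.11 (SE, adjusted p = 0.000216), with treated rats at 0.04 to 0.49 and vehicle rats at -0.76 to -0.18. On day 29 its difference was 0.28 ± 0.11 (SE, adjusted p = 0.0846), and a further Krt8 row gave 0.35 ± 0.12 (adjusted p = 0.0444). Krt18 was higher by 0.40 ± 0.10 on day 8 (adjusted p = 0.00355) and by 0.52 ± 0.10 on day 29 (adjusted p = 0.000446). The other Krt18 row gave 0.25 ± 0.08 on day 8 (adjusted p = 0.0214) but 0.05 ± 0.08 on day 29 (adjusted p = 0.709), so the rows disagreed on day 29. Without vehicle replicate 1 the called Krt18 row differed by 0.42 (adjusted p = 0.00101). Krt23, a keratin induced in stressed liver, was higher on day 8 by 0.45 ± 0.09 (adjusted p = 0.000778), against -0.01 ± 0.10 on day 29 (adjusted p = 0.964). For the change of the 2000 mg/kg difference between days, limma called 0 of the 24 genes of this list, Krt23 included. Of the 24, 9 had an unadjusted p under 0.05, against 14.7% of all rows.

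Cdh1, or E-cadherin, the adhesion protein of epithelial junctions, was higher at 2000 mg/kg on day 29 by 0.56 ± 0.11 (SE, adjusted p = 0.000539). Treated rats lay between -0.03 and 0.42 and vehicle rats between -0.84 and -0.11, and without vehicle replicate 1, the lowest, the difference was 0.47 (adjusted p = 0.00139). On day 8 the Cdh1 difference was 0.01 ± 0.11 (adjusted p = 0.956). The change between days was 0.55 ± 0.16 and was not called (adjusted p = 0.0905). Vehicle Cdh1 differed between day 29 and day 8 by -0.38 ± 0.11 (adjusted p = 0.0555), with all 6 day 29 rats below all day 8 rats, as for 0.706% of rows. The separation was narrow, with the highest day 29 rat at -0.114 and the lowest day 8 rat at -0.113.

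Cldn3, a tight junction claudin, was higher at 200 mg/kg on day 29 by 0.61 ± 0.12 (SE, adjusted p = 0.00385). At 2000 mg/kg that day it was higher by 0.37 ± 0.13 (adjusted p = 0.0343), a call lost in 5 of 11 fits that left out 1 rat. The difference between the doses was -0.24 ± 0.13 (adjusted p = 0.261). The 2 genes of the list that were lower on day 8 serve transport. Aqp1, a water channel also present in endothelium, fell by 0.57 ± 0.11 (adjusted p = 0.000517), and Slc10a2, the apical bile acid uptake carrier, fell by 0.56 ± 0.10 (adjusted p = 9.43e-05). In both, all 6 treated rats lay below all 6 vehicle rats, as they did for 5.19% of all rows.

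**Figure D3:**
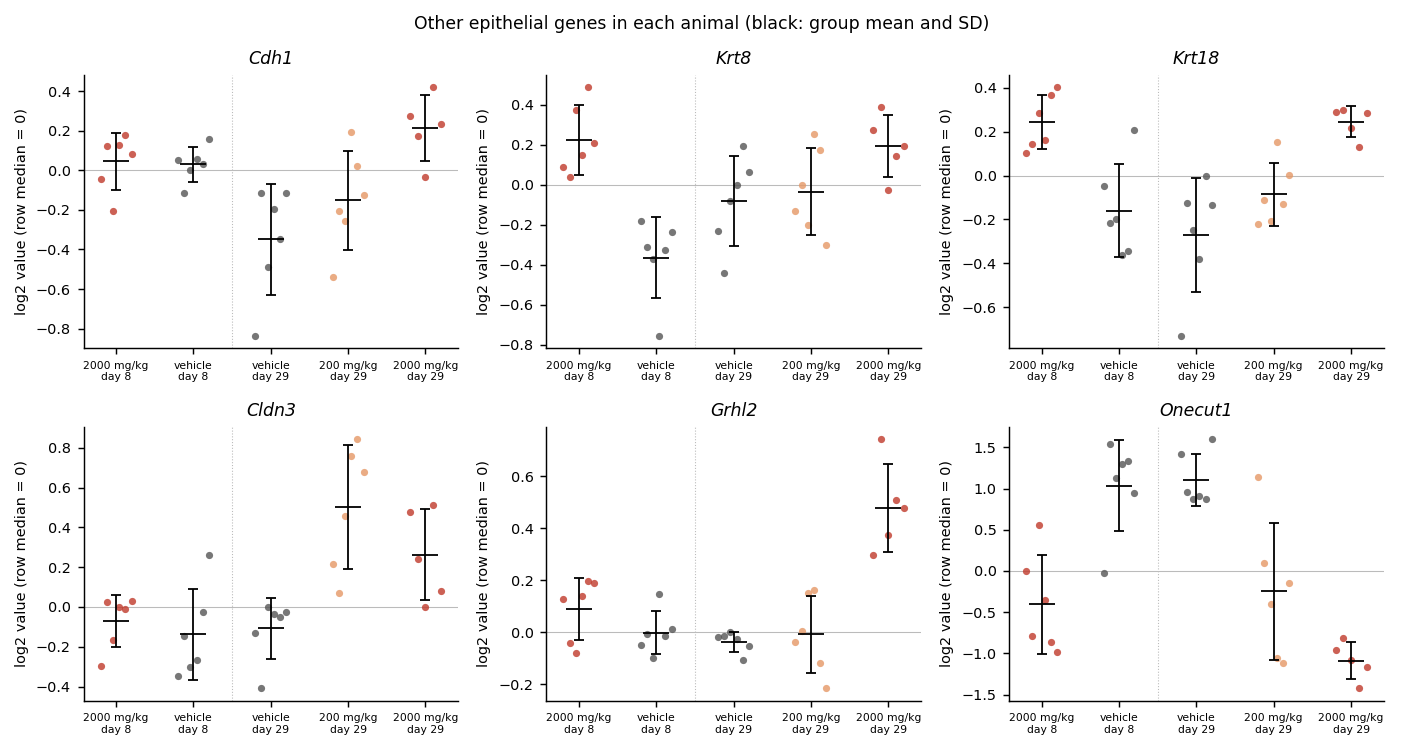
Centred log2 value of 6 epithelial genes (vertical axis, row median = 0, each panel on its own scale) in each rat, by dose and day, with group mean and SD in black (n = 6, except n = 5 for 2000 mg/kg at day 29). The genes were picked for drawing after their values were seen. Grhl2 at 2000 mg/kg on day 29 lies at 0.30 or above, over all other rats, and Onecut1 there lies at -0.82 or below.

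Among 13 measured genes of biliary transcription and Notch signalling, the pathway that directs hepatoblasts to a bile duct fate, 0 were higher and 5 lower at 2000 mg/kg on day 8, where 9.32% of all rows were lower. Those 5 were Onecut1, the receptors Notch1 and Notch2, the ligand Jag1 and the Notch target Hey1. Notch1 fell by 0.29 ± 0.05, Notch2 by 0.31 ± 0.07 and Jag1 by 0.42 ± 0.09 (SE, adjusted p = 0.000235, 0.00134 and 0.00153), with treated rats below all vehicle rats for each, as they were for 5.19% of all rows. At 2000 mg/kg on day 29 the differences of Notch1, Notch2 and Jag1 were -0.01, -0.07 and -0.23, none of them called. The list had 1 gene higher (Grhl2) and 1 lower (Onecut1) there, where 12.1% of all rows were higher and 9.55% lower. The lower genes numbered 2 without vehicle replicate 1 or 2 or treated replicate 3 or 4. For the change of the 2000 mg/kg difference between days, limma called 1 gene of the list, Grhl2, where 0.775% of all rows were called. The changes of Notch1, Notch2 and Jag1 between days were therefore not called.

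Onecut1, or HNF6, a factor of hepatocytes and of duct development, had the widest change of the list. Its difference from vehicle was -1.44 ± 0.30 at 2000 mg/kg on day 8 (SE, adjusted p = 0.000859) and -2.19 ± 0.32 at 2000 mg/kg on day 29 (adjusted p = 7.25e-06). At 200 mg/kg it was -1.35 ± 0.30 (adjusted p = 0.0113), or 0.0604 with only those groups in the model. All 5 rats given 2000 mg/kg on day 29 were below all vehicle rats, a separation shown by 4.99% of rows.

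Grhl2, a grainyhead-like factor that in mouse cholangiocytes promotes tight junctions, was higher at 2000 mg/kg on day 29 by 0.52 ± 0.07 (SE, adjusted p = 3.21e-06). It was also higher than at 200 mg/kg, by 0.49 ± 0.07 (adjusted p = 2.68e-05). On day 8 its difference was 0.09 ± 0.07 (adjusted p = 0.418). The change between days was 0.43 ± 0.10 (adjusted p = 0.0344), a call lost in 10 of 23 fits that left out 1 rat.

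For the next lists, 9.32% of all rows were higher and 9.32% lower at 2000 mg/kg on day 8. On day 29 these shares were 12.1% and 9.55%. Of 12 measured progenitor and oval cell genes, limma called 0 on day 29. At an unadjusted p under 0.05 there were 2 at 2000 mg/kg, against 32.1% of all rows, and 3 at 200 mg/kg, against 13.7%. At 2000 mg/kg on day 8, 0 of the 12 genes were higher and 1 lower. The lower one was Lgr5, a Wnt target and stem cell receptor, which fell by 0.30 ± 0.09 (SE, adjusted p = 0.0163). Lgr5 no longer passed when vehicle replicate 6 was removed, with an adjusted p of 0.0577, and 3 genes of the list were lower without treated replicate 3. YAP is a growth-promoting coactivator that Lats kinases restrain and that is active in duct cells. Among 10 measured genes of its pathway, 1 was higher and 2 lower at 2000 mg/kg on day 8, and 0 were higher and 2 lower on day 29, Lats2 and Ccn2, a secreted matrix protein and YAP target. The Ccn2 call, at -0.33 (adjusted p = 0.0348), was lost in 7 of 11 fits that left out 1 rat, those without vehicle replicate 1, 4, 5 or 6 or treated replicate 1, 3 or 5. It was also lost with quantile normalization, with only the groups compared and with the replicate block, each of which leaves 1 lower. Lats2 was lower on both days, by 0.26 ± 0.07 and 0.31 ± 0.07 (adjusted p = 0.00511 and 0.00106). Axl, a receptor kinase that macrophages also carry, fell by 0.73 ± 0.12 on day 8 (adjusted p = 7.14e-05). Of 10 measured cell cycle genes, 0 were higher and 1 lower at 2000 mg/kg on day 8, and 1 in 10, like 1 in 12, is near the share above. On day 29, 1 was higher and 0 lower. Both calls were unstable. Top2a, a topoisomerase of dividing cells, at -0.21 on day 8 (adjusted p = 0.0403), was lost in 8 of 12 fits that left out 1 rat, and Mcm2, a subunit of the replicative helicase, at 0.22 on day 29 (adjusted p = 0.0423), in 6 of 11. Only the groups compared ended both calls, and quantile normalization and the replicate block ended that of Mcm2. With 1 rat left out the list counts ran from 0 to 2 lower on day 8 and from 0 to 1 higher on day 29.

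**Figure D4:**
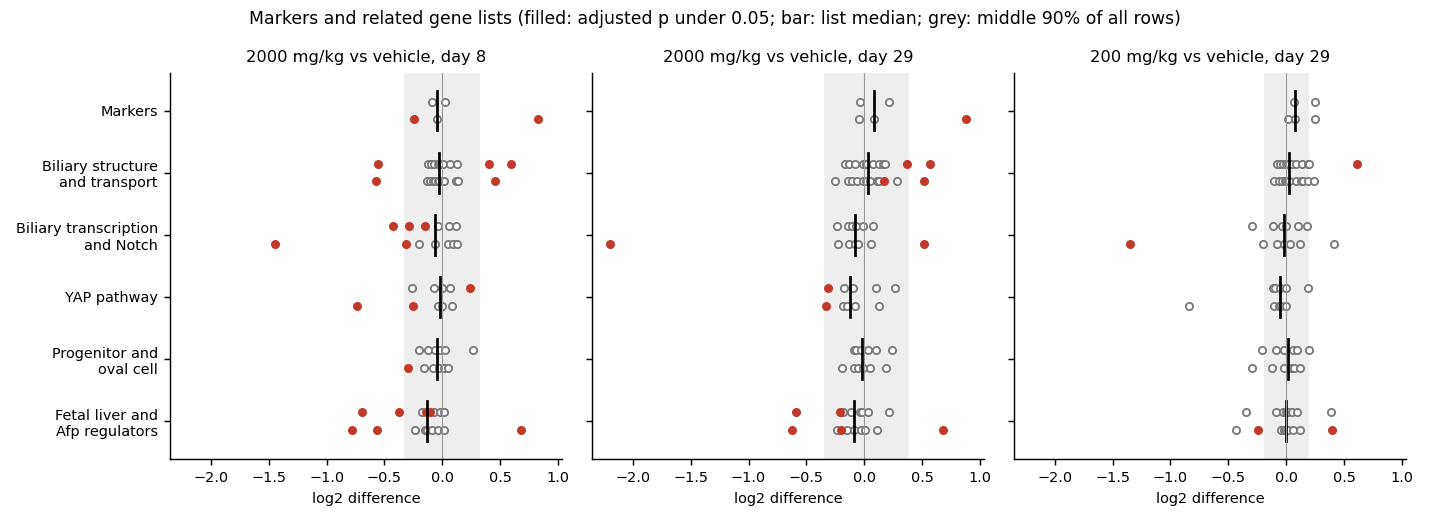
Log2 difference from vehicle (horizontal axis) of each measured gene, for the 5 markers and 5 related gene lists, in 3 comparisons. Filled points have an adjusted p under 0.05, black bars are list medians and the grey band holds the middle 90% of all rows. List medians lie between -0.13 and 0.08, and the filled points to either side are the called genes.

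Of 17 measured fetal liver genes and regulators of Afp, 1 was higher and 6 lower at 2000 mg/kg on day 8. In that comparison 9.32% of all rows were higher and 9.32% lower. At 2000 mg/kg on day 29, 1 was higher and 4 lower, where 12.1% of all rows were higher and 9.55% lower. The list medians were -0.13 and -0.09. Alb and Hnf4a of this list were also counted among the hepatocyte markers. Foxa1, a pioneer factor that opens liver enhancers, fell by 0.78 ± 0.10 on day 8 and by 0.59 ± 0.11 on day 29 (SE, adjusted p = 2.53e-06 and 0.000185). Zbtb20, a repressor of Afp in mouse liver, fell by 0.38 ± 0.06 on day 8 (adjusted p = 7.37e-05). Afm, the albumin family neighbour of Afp that binds vitamin E, fell by 0.57 ± 0.06 on day 8 and by 0.62 ± 0.06 on day 29 (adjusted p = 8.88e-08 and 3.75e-08). Aldoa, the glycolytic aldolase that dominates before birth, was the gene that rose, by 0.68 ± 0.08 on both days (adjusted p = 1.72e-07 and 3.85e-07) and by 0.39 ± 0.08 at 200 mg/kg (adjusted p = 0.00343).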

How the data were processed

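Total RNA from 29 rat livers was hybridised to 1 Affymetrix array each. The authors deposited log2 values centred on each row's median. PLIER and MAS5 appear, without roles, in the submitters' processing notes. How arrays were normalized to each other, and any scan batch, is information not given in the sources used here. Array medians ran from -0.023 to 0.0287, and the number of arrays limits the precision.

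Genes were named from the platform annotation: 15097 rows had 1 symbol, 323 several and 11922 none. One linear model with 5 groups over all 29 rats was fitted with limma 3.58.1 in R 4.3.3 (eBayes without trend, two-sided), with Benjamini-Hochberg adjustment over 27342 rows and a threshold of 0.05. The method was tested on simulated data. The members and gene lists were chosen with earlier results of these data known. All markers are named. From each list, up to 4 called genes per comparison with the largest difference were picked. Only some of these are named here, and other genes were named after their values were seen. For a gene with several rows, a row stored at 8 or more before centring, judged from the rounding of the deposited decimals, came first. Groups came from the labels, whose replicate numbers did not pair rats: same-numbered rats correlated between -0.282 and 0.295. The alternatives were other normalizations, filters, models and thresholds, and leaving out each rat.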

Additional observations from a re-analysis of the deposited data

Results flagged for a closer look

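Of 25 combinations of marker and group, 2 held a rat far from the others of its group, where chance gives about 1 in 20. Epcam in replicate 3 of the 200 mg/kg group was at -0.51, with the next lowest rat at -0.07. Cd24 in replicate 2 of the day 29 vehicle group was at 0.38, with the next highest at -0.07.

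The 2000 mg/kg difference was called as changed between day 8 and day 29 for 3 named list genes, where 0.775% of all rows were called. By the limma interaction term, Grhl2 changed by 0.43 (adjusted p = 0.0344) and Itga5, an integrin subunit, by 0.45 (adjusted p = 0.046). Lrat, a retinol-esterifying enzyme of stellate cells, changed by -0.87 (adjusted p = 0.0324). They were 1 of 13, 1 of 5 and 1 of 9 measured genes of their lists, and no gene of the other lists was called. The calls were lost in 10, 17 and 9 of 23 fits that left out 1 rat for Grhl2, Itga5 and Lrat, and with quantile normalization for Grhl2 and Lrat.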

How the results depend on the processing

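Epcam stayed higher and called at 2000 mg/kg under every alternative run, at 0.82 to 0.83 on day 8, 0.80 to 0.88 on day 29, and 0.57 to 0.63 against 200 mg/kg. Leaving out single rats gave 0.75 to 0.87, 0.83 to 0.95 and 0.54 to 0.70. With the replicate block, which changed no marker's call, Epcam differed by 0.82 on day 8 and 0.86 on day 29. Reversals were of small uncalled differences: the Epcam change between days was -0.030 with quantile normalization, and its vehicle difference was 0.10 with quantile normalization and 0.023 with array weights. Leaving out single rats also spanned 0 for the vehicle difference of Epcam (-0.066 to 0.031), for Krt19 on day 8 (-0.019 to 0.087) and between doses (-0.14 to 0.039), for Cd24 on day 8 (-0.077 to 0.013), on day 29 (-0.075 to 0.048) and between days (-0.047 to 0.092), for Afp at 200 mg/kg (-0.021 to 0.038) and for Prom1 between doses (-0.011 to 0.041).

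The markers called on day 8 numbered 1 in place of 2 with only the groups compared, at a threshold of 0.01, and with only rows stored at 8 or more, where Epcam alone is tested. They numbered 1 to 2 when single rats were left out. Over all rows, rows stored at 8 or more gave 3327 calls on day 8 and 3648 on day 29. A threshold of 0.01 gave 3244 and 3754, with 277 at 200 mg/kg, 1364 between doses, 28 between days and 77 in vehicle, against 5096, 5910, 761, 2704, 212 and 746. Only the groups compared gave 340 at 200 mg/kg and 136 in vehicle. Quantile normalization gave 102 between days, and array weights gave 673 between days and 1773 in vehicle.

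Leaving out single rats gave 4400 to 4802 calls on day 8, 4791 to 6313 on day 29, 436 (without 200 mg/kg replicate 5) to 1102 at 200 mg/kg, 1755 (without 2000 mg/kg replicate 5) to 2813 between doses, 76 (without 2000 mg/kg day 8 replicate 1) to 563 (without vehicle day 29 replicate 2) between days, and 254 (without vehicle day 29 replicate 5) to 2141 (without vehicle day 29 replicate 2) in vehicle. The cause of these moves was not tested. Settings for list genes were added after seeing the data. Signal over background is unknown, because the values are centred.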

Other observations

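Osteopontin, the product of Spp1, binds integrins and CD44, and 5 of 8 listed receptor genes and partners were measured. At 2000 mg/kg on day 8, 1 was higher and 3 were lower, where 9.32% of all rows were higher and 9.32% lower. The fibronectin receptor subunit Itga5 fell by 0.74 ± 0.07 (SE, adjusted p = 2.59e-08 by limma), and Itgb1, the common beta subunit, was higher by 0.27 ± 0.07 (adjusted p = 0.00961). At 2000 mg/kg on day 29, Itga5 fell by 0.29 ± 0.08 (adjusted p = 0.0076). In vehicle rats, Itga5 was also lower on day 29 than on day 8, with a difference of -0.60 ± 0.07 (adjusted p = 9.68e-05).

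Among immune markers at 2000 mg/kg on day 8, 3 of 4 measured B cell markers and 3 of 8 T and NK cell markers were lower and 0 were higher, where 9.32% of all rows were lower. The T and NK cell count ran from 1 to 4 when 1 rat was left out, with 1 without treated replicate 4. In the same comparison limma called 0 of 7 neutrophil markers, with 0 at an unadjusted p under 0.05, against 28.8% of all rows. For the 4 measured liver endothelial markers, 1 was lower at 2000 mg/kg on day 8, a call lost without vehicle replicate 2, 4 or 6 or treated replicate 5. In vehicle rats, all 4 were lower on day 29 than on day 8, where 1.77% of all rows were called lower. That count was 3 without day 29 vehicle replicate 1 and 1 with only the vehicle groups in the model. The Lyve1 call there was lost in 6 of 12 fits that left out 1 rat.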
